A study of Mus musculus with 18 samples.

Results

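The Slc25 genes encode the mitochondrial carriers, most of which move metabolites, nucleotides, cofactors and ions across the inner membrane of mitochondria. The family was taken as every gene named Slc25a followed by a number, which gave 47 of the 54532 genes in the deposited table. Of these, 34 had a mean of at least 1 FPKM (fragments per kilobase of gene per megafragment of library) over the 18 libraries and were tested, and 13 were not.

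The libraries came from KPCA.B, a mouse line labelled as high-grade serous ovarian cancer. There were 6 groups of 3 libraries. Cells with the hairpin shNdufa5_1 (labelled Ndufa5 knockdown 1) were grown in SCM or in PCM, cells with the hairpin shNdufa5_2 (labelled Ndufa5 knockdown 2) were grown in SCM or in PCM, and cells with shControl (labelled Ndufa5 wild type) were grown in SCM or in PCM. SCM is medium conditioned by cells made senescent with cisplatin, and PCM is medium conditioned by proliferating cells given the vehicle DMF, so the media differ in both the drug and the state of the cells that made them. All 6 groups shared fresh DMEM with high glucose, mixed with the conditioned medium in equal parts, with 4% heat-inactivated FBS, EGF at 2 ng/mL and the supplement ITS-G. The study asked how Ndufa5, a subunit of respiratory complex I, bears on the transcripts of cells exposed to medium of senescent cells. One cell line was used, and nothing in the labels shows that a group's 3 libraries were cultured apart, so p-values measure only the spread among these libraries, which may be technical.

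A typical carrier binds its substrate on one side of the inner membrane and releases it on the other, usually in exchange for a second substrate. The family links the respiratory chain to the cytosol: ADP and phosphate enter and ATP leaves, the malate-aspartate shuttle carries reducing equivalents from cytosolic NADH, and citrate leaves for lipid synthesis. Other members bring in NAD, pyrimidine nucleotides, glutathione and iron, which complex I and other iron-sulfur proteins need.

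The libraries held 13.8 to 38.9 M (M, mega) fragments, recovered from the steps of the low FPKM values, and replicates correlated at 0.979 to 0.99 across the genes tested. Ndufa5 was at 34.6% of shControl in PCM and 28.1% in SCM with shNdufa5_1 (exact two-sided permutation p = 0.1 for both, the smallest that 3 against 3 libraries allow). With shNdufa5_2 it was at 93.4% in PCM (exact p = 0.6) and 73.4% in SCM (exact p = 0.1), so these are called the libraries labelled shNdufa5_2. Of 10 epithelial or ovarian markers, 6 to 7 reached 1 FPKM in each group, while Wt1 and Muc16 were at 0 and Epcam below 1 in every group and Cdh1 below 1 in 5 of 6, and the list's summed level was 1048 to 2060 FPKM. Markers of fibroblasts summed to at most 5.05 FPKM, of immune cells to 10.3, of endothelium to 10.5, of striated muscle to 46.2 and of adipocytes to 1.15. Most of the immune, endothelial and muscle sums came from Cd68, Plvap and Tnnt2, while Ptprc was below 0.01 FPKM and Cd3e at 0. Cd68, a macrophage marker, averaged 1.71 FPKM in SCM and 1.41 in PCM with shNdufa5_1, 8.68 and 7.70 with the label shNdufa5_2, and 6.54 and 2.10 in shControl, so it was lowest with shNdufa5_1 and its response to SCM was called in shControl (log2 difference 1.28, limma adjusted p = 4.55e-05). Plvap, an endothelial marker, averaged 5.15 FPKM in SCM and 2.44 in PCM with shNdufa5_1, 9.17 and 7.03 with the label shNdufa5_2 and 6.87 and 3.98 in shControl. Tnnt2, a cardiac troponin, averaged 44.3 FPKM in SCM and 42.5 in PCM with shNdufa5_1, 39.5 and 34.7 with the label shNdufa5_2 and 37.5 and 31.1 in shControl. The short ribosomal-like gene Gm23935 differed between groups (82770 FPKM in shControl SCM against 21480 in shControl PCM), as did Lars2 (126 against 33.2 FPKM). Their part in the carrier results was not tested.

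Differences are given as log2 differences of FPKM + 1 with their standard error, from limma with p-values adjusted over 11084 genes by the Benjamini-Hochberg method. A member is called where the adjusted p is below 0.05. A log2 difference of 1 is a factor of 2 for a gene well above 1 FPKM and less for a low one. The deposited values are scaled to a common median gene, so a change is relative to that gene. With each library scaled to its fragment total, the median gene shifted by -0.20 for SCM minus PCM in shControl and by 0.15 for shNdufa5_1 minus shControl in SCM. Scaled to summed FPKM, of which Gm23935 is a large and varying part, these shifts were -0.50 and 0.34. In bulk RNA, fewer cells with a transcript and less of it per cell cannot be told apart.

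On the deposited scale the family had its highest summed level in shControl cells in SCM. All genes together also summed highest there, at 437860 to 484520 FPKM per library, against 290240 to 303780 in shControl PCM. The median member's difference between these media was 0.0556, but -0.171 under fragment totals and -0.474 under summed FPKM. The rank of the family sum is therefore given for the deposited scale only. The 47 members together came to 842 ± 6.01 FPKM in shNdufa5_1 SCM and 801 ± 8.95 in shNdufa5_1 PCM (SD, n = 3 each). They came to 902 ± 7.71 FPKM in the SCM libraries labelled shNdufa5_2 and 908 ± 4.32 in the PCM libraries with that label. In shControl they reached 1005 ± 14.9 FPKM in SCM, against 841 ± 10.8 in PCM. Most of the shControl difference lay in few members, since Slc25a39 alone averaged 191 FPKM in SCM against 96.3 in PCM. By mean level over all libraries Slc25a5 (133 FPKM), Slc25a39 (130.4) and Slc25a4 (102) led, followed by Slc25a3 (63.7), Slc25a1 (59.8), Slc25a37 (54.8) and Slc25a24 (50.4). The first pair lies closer together than each gene's spread between groups. In all, 18 members reached 10 FPKM.

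**Figure D1:**
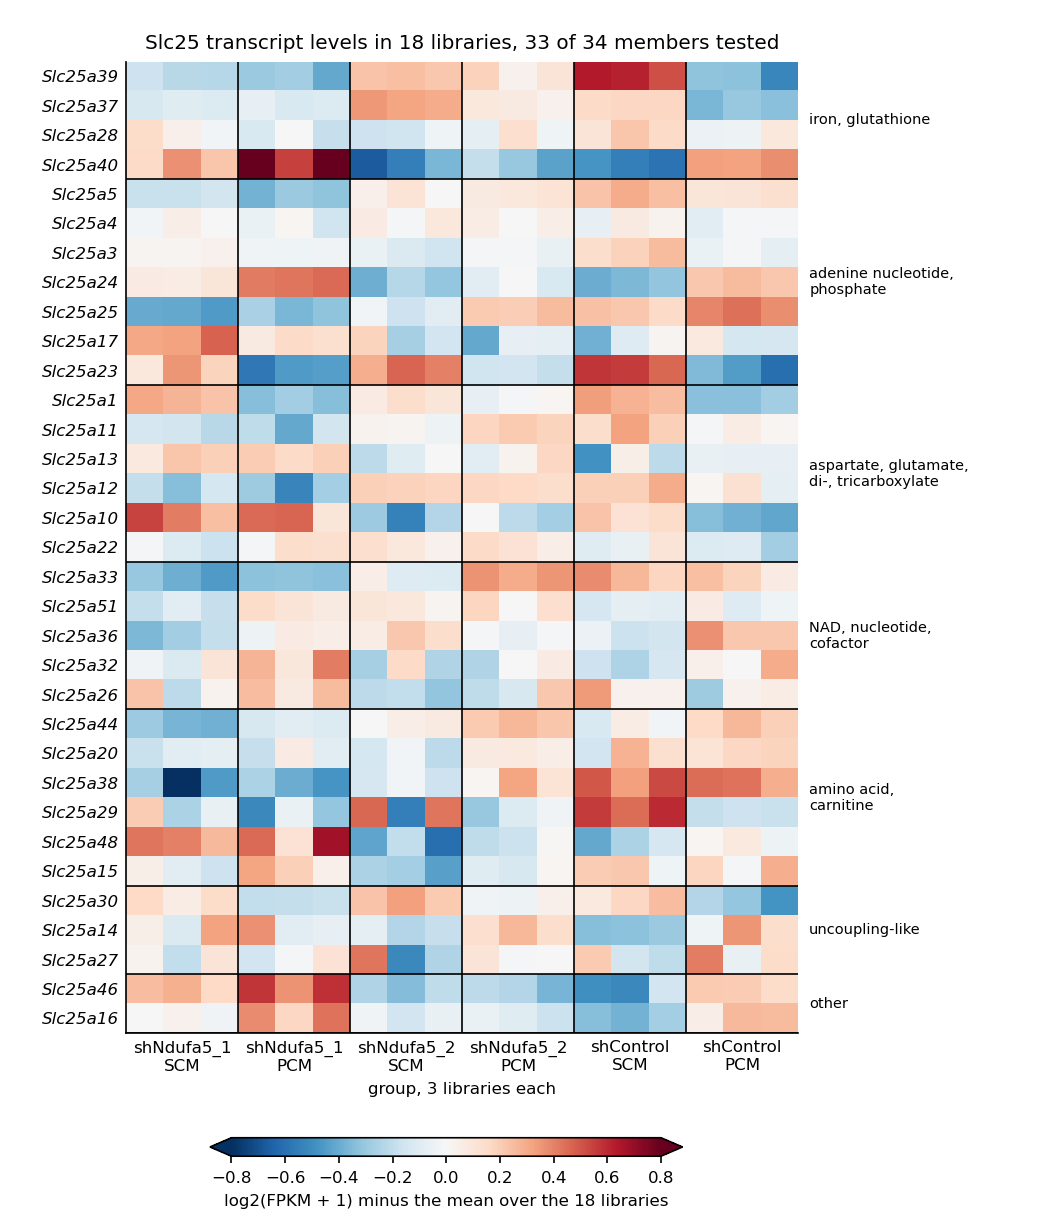
Heat map of log2(FPKM + 1) minus each gene's mean over the 18 libraries, for 33 of the 34 members tested, in rows by role, with 3 libraries in each of the 6 groups in columns. Red is above and blue below the gene's mean. Slc25a39 is darkest red in shControl SCM (mean 191 FPKM) and Slc25a40 is darkest red in shNdufa5_1 PCM (mean 4.29 FPKM).

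Carriers were called at shares of 20.6% to 64.7% in the 9 comparisons, against 22.8% to 61.9% of all genes. In shControl cells, SCM against PCM called 21 of the 34 members, 12 higher and 9 lower (61.8%), beside 61.9% of all genes tested (31.7% higher and 30.2% lower). With shNdufa5_1 the same media called 12 members, 4 higher and 8 lower (35.3%), beside 42.3% of all genes (22.5% higher, 19.8% lower). In the libraries labelled shNdufa5_2 they called 9, 4 higher and 5 lower (26.5%), beside 22.8% (11.7% higher, 11.1% lower). The members' shares stand near the background in all 3. The media did not overlap for 23 members in shControl, beside 66.1% of all genes, for 15 with shNdufa5_1, beside 52.2%, and for 16 with the label shNdufa5_2, beside 37.8%.

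Between hairpins, shNdufa5_1 against shControl called 19 members in PCM, 10 higher and 9 lower (55.9%), beside 52.7% of all genes (25.6% higher, 27.1% lower). In SCM the same hairpin called 22, 8 higher and 14 lower (64.7%), beside 59.8% (28.7% higher, 31.1% lower). The libraries labelled shNdufa5_2 against shControl called 14 in PCM, 8 higher and 6 lower (41.2%), beside 35.6% (19.3% higher, 16.3% lower). In SCM they called 15, 4 higher and 11 lower (44.1%), beside 33.9% (13.9% higher, 20% lower). The median log2 difference of the members in SCM was -0.11 with shNdufa5_1 and -0.053 with the label shNdufa5_2, against -0.0043 and -0.014 over all genes. The groups of libraries did not overlap for 24 members with shNdufa5_1 in SCM, beside 65.1% of all genes, and for 21 in PCM, beside 59.8%. They did not overlap for 17 in SCM with the label shNdufa5_2, beside 43.2%, and for 19 in PCM, beside 49.8%. Both hairpins were set against the same shControl libraries, so the 2 comparisons are not independent.

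The response to SCM, taken as SCM minus PCM, was then compared between hairpins. The response with shNdufa5_1 minus that in shControl called 7 members, 1 higher and 6 lower (20.6%), beside 26.2% of all genes (10.7% higher, 15.5% lower). For the label shNdufa5_2 it called 16, 5 higher and 11 lower (47.1%), beside 43% (18.9% higher, 24.1% lower).

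The balance of higher and lower calls depended on the scaling, in the members and in all genes. Under fragment totals SCM in shControl called 7 members higher and 16 lower, beside 17.5% and 48.8% of all genes, and under summed FPKM 2 and 26, beside 4.4% and 70.4%. With shNdufa5_1 in SCM against shControl the fragment totals called 14 higher and 10 lower, beside 43.7% and 20% of all genes, and summed FPKM 17 and 4, beside 57.3% and 9%. In PCM they called 7 and 10, beside 24.9% and 28.4%, and 2 and 11, beside 12.7% and 33.1%.

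Fragment totals called, in SCM for the label shNdufa5_2 against shControl, 9 members higher and 9 lower, beside 24.4% and 11.4% of all genes, and summed FPKM 11 and 1, beside 42.9% and 1.66%. In PCM they called 6 and 9, beside 12% and 26.3%, and 0 and 17, beside 1.25% and 57%. The difference of response for shNdufa5_1 was called in 12 members upward and 2 downward under fragment totals, beside 29.9% and 6.96% of all genes, and in 22 and 1 under summed FPKM, beside 63% and 0.767%. With the label shNdufa5_2 this was so in 7 and 6, beside 32.1% and 12.8%, and 21 and 0, beside 66.2% and 0.839%. SCM against PCM called 4 higher and 10 lower under fragment totals (beside 18% and 24.3%) and 3 and 8 under summed FPKM (beside 10.9% and 17.6%) for shNdufa5_1, and 3 and 9 (beside 8.07% and 18.3%) and 3 and 1 (beside 6.26% and 2.08%) for the label shNdufa5_2. Quantile normalization gave 9 higher and 10 lower for SCM in shControl, beside 26.7% and 31.4% of all genes, and 5 and 4 for the difference of response with shNdufa5_1, beside 12.8% and 8.91%.

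**Figure D2:**
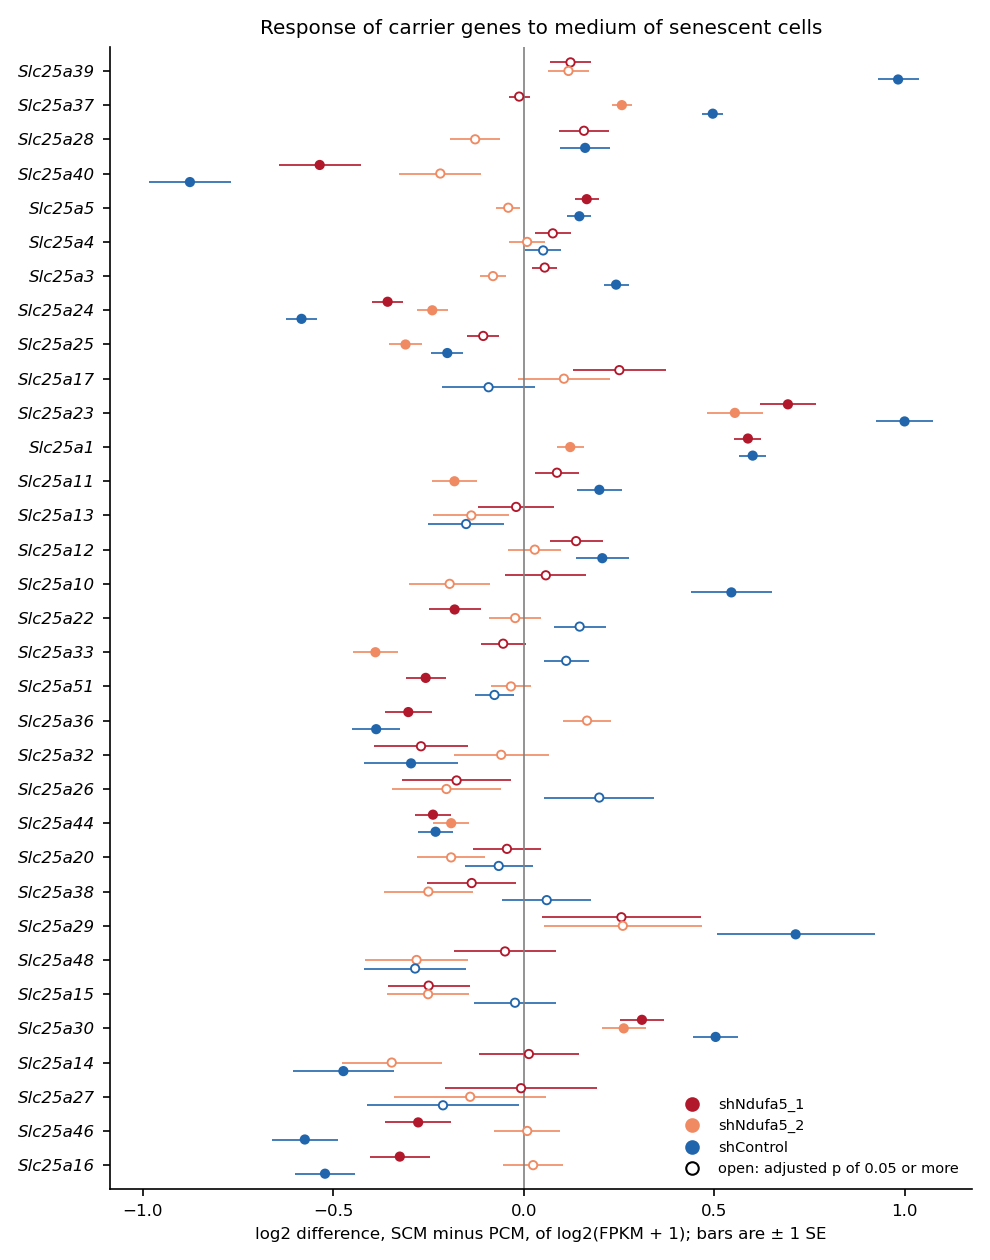
Response to SCM of 33 of the 34 members tested, as the log2 difference SCM minus PCM with 1 SE, in cells with shNdufa5_1, in the libraries labelled shNdufa5_2 and in shControl cells. Filled symbols passed the test. The shControl values run from -0.88 (Slc25a40) to 1.00 (Slc25a23), while those of the label shNdufa5_2 stay between -0.39 and 0.55.

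The glutathione carriers moved apart in shControl cells. Slc25a39 and Slc25a40 are related proteins that bring glutathione into mitochondria, and SCM raised Slc25a39 and lowered Slc25a40. The rise of Slc25a39 was not called with either hairpin. Slc25a39 (chr11, minus strand) had 113, 108 and 108 FPKM in shNdufa5_1 SCM, against 103, 104 and 94.8 in shNdufa5_1 PCM. It had 148, 149 and 147 FPKM in the SCM libraries labelled shNdufa5_2, against 144, 129.7 and 136 in their PCM libraries. In shControl it had 197, 194 and 182 FPKM in SCM, against 101, 101 and 87.6 in PCM. The shControl SCM libraries were the highest of the 18 and did not overlap any other group.

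The log2 difference of Slc25a39 between SCM and PCM was 0.98 ± 0.054 in shControl (limma adjusted p = 4.95e-10), against 0.12 ± 0.054 with shNdufa5_1 (adjusted p = 0.0808) and 0.12 ± 0.054 with the label shNdufa5_2 (adjusted p = 0.135). The responses themselves differed from shControl's by -0.86 ± 0.076 (adjusted p = 1.11e-06) with shNdufa5_1 and by -0.86 ± 0.076 (adjusted p = 5.58e-07) with the label shNdufa5_2. With shNdufa5_1, the difference of Slc25a39 from shControl was not called in PCM (0.064 ± 0.054, adjusted p = 0.343), and Slc25a39 was lower in SCM (-0.80 ± 0.054, adjusted p = 5.03e-09). In the libraries labelled shNdufa5_2 it was already higher in PCM (0.50 ± 0.054, adjusted p = 5.82e-06) and lower in SCM (-0.36 ± 0.054, adjusted p = 0.000122). These 2 calls ended under summed FPKM (0.147 and -0.0709), as did the difference of response for this label (-0.218), and the SCM call ended under quantile normalization (-0.142).

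Slc25a40 (chr5, plus strand) is the low member of the pair. It had 2.40, 2.94 and 2.57 FPKM in shNdufa5_1 SCM, against 4.76, 3.47 and 4.65 in shNdufa5_1 PCM. Libraries labelled shNdufa5_2 had 0.925, 1.10 and 1.37 FPKM in SCM, against 1.68, 1.48 and 1.27 in PCM, and shControl had 1.21, 1.09 and 1.03 in SCM, against 2.83, 2.82 and 2.95 in PCM. SCM lowered it in shControl (-0.88 ± 0.11, limma adjusted p = 4.04e-06) and with shNdufa5_1 (-0.54 ± 0.11, adjusted p = 0.000962, or -0.27 and 0.0565 with GC content and length removed), and its difference with the label shNdufa5_2 was not called (-0.22 ± 0.11, adjusted p = 0.16). Against shControl, Slc25a40 was higher with shNdufa5_1 in both media (0.44 in PCM and 0.78 in SCM). It was lower in PCM with the label shNdufa5_2 (-0.65 ± 0.11, adjusted p = 0.000261) and not called in SCM (0.011 ± 0.11, 95% interval -0.22 to 0.24).

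The ratio of Slc25a39 to Slc25a40 within a library was 41.9 ± 5.06 in shNdufa5_1 SCM and 24 ± 5.24 in shNdufa5_1 PCM (SD, n = 3 each). It was 134 ± 26.8 in the SCM libraries labelled shNdufa5_2 and 93.5 ± 11.98 in their PCM libraries. In shControl it was 173 ± 8.06 in SCM, against 33.6 ± 3.41 in PCM. The shControl media did not overlap in this ratio (exact permutation p = 0.1, the smallest possible). That follows from the opposite moves of Slc25a39 and Slc25a40, each without overlap, so the ratio test adds nothing to them. After a trend with GC content and length was removed, the shControl response of Slc25a39 was 0.62 and that of Slc25a40 -0.51. The lower level of Slc25a39 in SCM was then -0.51 with shNdufa5_1 and -0.19 with the label shNdufa5_2, all still called, while the difference of response of Slc25a40 for the label shNdufa5_2 was 0.66 before and 0.24 after, no longer called (adjusted p = 0.23).

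The promoter windows of this pair are shown because its members moved in opposite directions in shControl cells, together with those of Slc25a23 and Slc25a24, a second related pair that did the same. Each is the 250 bases before the gene's start as given in the RefSeq table, build GRCm38.p6, written along the gene's strand. In GENCODE vM21, Slc25a39 extends to position 102407946, so its window lies inside that gene span. Capitals mark GC boxes (GGGCGG or its reverse complement CCGCCC) and, where found, CCAAT boxes (those letters on either strand). Slc25a39 lies at chr11:102407518-102407767 on the minus strand, Slc25a40 at chr5:8422588-8422837 on the plus strand, Slc25a23 at chr17:57059864-57060113 on the minus strand and Slc25a24 at chr3:109122899-109123148 on the plus strand.
Slc25a39: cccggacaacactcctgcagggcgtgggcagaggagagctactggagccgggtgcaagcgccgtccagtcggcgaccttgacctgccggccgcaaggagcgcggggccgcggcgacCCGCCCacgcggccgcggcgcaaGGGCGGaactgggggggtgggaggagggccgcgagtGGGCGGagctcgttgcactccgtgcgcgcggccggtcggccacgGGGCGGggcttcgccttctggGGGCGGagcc
Slc25a40: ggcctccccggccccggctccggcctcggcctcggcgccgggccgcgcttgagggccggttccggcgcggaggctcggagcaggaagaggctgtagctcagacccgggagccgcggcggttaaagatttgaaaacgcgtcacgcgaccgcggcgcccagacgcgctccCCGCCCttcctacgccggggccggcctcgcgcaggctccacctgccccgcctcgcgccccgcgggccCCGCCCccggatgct
Slc25a23: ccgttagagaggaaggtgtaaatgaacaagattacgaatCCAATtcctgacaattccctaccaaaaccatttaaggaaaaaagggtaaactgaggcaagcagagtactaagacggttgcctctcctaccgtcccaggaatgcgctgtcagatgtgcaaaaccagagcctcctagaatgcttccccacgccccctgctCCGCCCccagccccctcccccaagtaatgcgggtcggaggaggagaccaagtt
Slc25a24: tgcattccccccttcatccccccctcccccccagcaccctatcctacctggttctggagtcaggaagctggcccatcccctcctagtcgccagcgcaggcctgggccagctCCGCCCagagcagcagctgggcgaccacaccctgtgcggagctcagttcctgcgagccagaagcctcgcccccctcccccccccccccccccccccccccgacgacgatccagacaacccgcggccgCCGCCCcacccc
The windows of Slc25a39 and Slc25a40 are about equally rich in G and C (77.2% and 78%), with 5 and 2 GC boxes. That of Slc25a24 holds 72.8% with 2 GC boxes, and that of Slc25a23, which has a second window in the table, 52.4% with 1 GC box and 1 CCAAT box. In these pairs the window of the member that rose was not richer in G and C than that of the member that fell, whereas its transcript was (59.7% for Slc25a39 against 39.4% for Slc25a40). Among the 46 windows of the 36 members found in the table, 69.6% hold a GC box on either strand, beside 32.7% of all 32851 windows. A CCAAT box stood in 45.7% of member windows and 33.8% of all, an E box (CACGTG) in 17.4% and 6.02%, a cAMP response element (TGACGTCA) in 4.35% and 1.55%, and an ATF4 element (TGATGCAA) in 0 of 46 and 0.791% of all. All windows include genes that are silent here, so the shares describe the windows only.

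Of the iron carriers, Slc25a37 had, like Slc25a39, a response to SCM that was smaller with both hairpins than in shControl, though this depended on the scaling. Slc25a37 and Slc25a28, the mitoferrins, bring iron to the matrix for heme and iron-sulfur clusters. Slc25a37 had 49.5, 50.7 and 50.1 FPKM in shNdufa5_1 SCM, against 51.7, 49.8 and 50.1 in shNdufa5_1 PCM. It had 69.2, 67.6 and 66.9 FPKM in SCM with the label shNdufa5_2, against 57.5, 56.9 and 55.5 in PCM, and 60.4, 61.02 and 60.96 in shControl SCM, against 41.9, 43.8 and 42.8 in shControl PCM. The shControl PCM libraries were the lowest and the SCM libraries labelled shNdufa5_2 the highest, and only the shNdufa5_1 media overlapped. Its response to SCM was -0.012 ± 0.027 with shNdufa5_1, 0.26 ± 0.027 with the label shNdufa5_2 and 0.50 ± 0.027 in shControl (limma adjusted p = 4.76e-10), and this shControl rise became -0.103 when libraries were scaled to their summed FPKM. The response minus shControl's was -0.24 for the label shNdufa5_2 (0.401 under summed FPKM, and -0.0507 under fragment totals and 0.0158 under quantile normalization, these 2 not called) and -0.51 for shNdufa5_1 (SE 0.038, adjusted p = 2.61e-07), though under summed FPKM the second was 0.0354. In PCM, Slc25a37 was higher than in shControl with both hairpins (0.23 with shNdufa5_1 and 0.40 with the label shNdufa5_2, neither called under summed FPKM). In SCM the hairpins lay on opposite sides of shControl. Slc25a37 was lower with shNdufa5_1 (-0.27 ± 0.027, adjusted p = 3.7e-07, but 0.141 under summed FPKM and 0.00375 under quantile normalization) and higher with the label shNdufa5_2 (0.16 ± 0.027, adjusted p = 0.000445, called in every setting tried).

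Slc25a28 averaged 36.5 ± 2.28 FPKM in shNdufa5_1 SCM and 32.6 ± 2.25 in shNdufa5_1 PCM, 32.2 ± 1.78 in SCM with the label shNdufa5_2 and 35.3 ± 2.83 in PCM, and 39.3 ± 1.59 in shControl SCM and 35.04 ± 1.86 in shControl PCM (SD, n = 3 each). Its shControl difference of 0.16 ± 0.066 (limma adjusted p = 0.0441) lost its call without any of shControl PCM replicates 1 and 2 and SCM replicates 2 and 3 (0.13 to 0.16), and turned to -0.0825 under fragment totals, -0.433 under summed FPKM and -0.00136 under quantile normalization. The ratio of Slc25a37 to Slc25a28 was highest in SCM with the label shNdufa5_2, at 2.11 ± 0.142, against 1.61 ± 0.127 in the PCM libraries with that label.

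**Figure D3:**
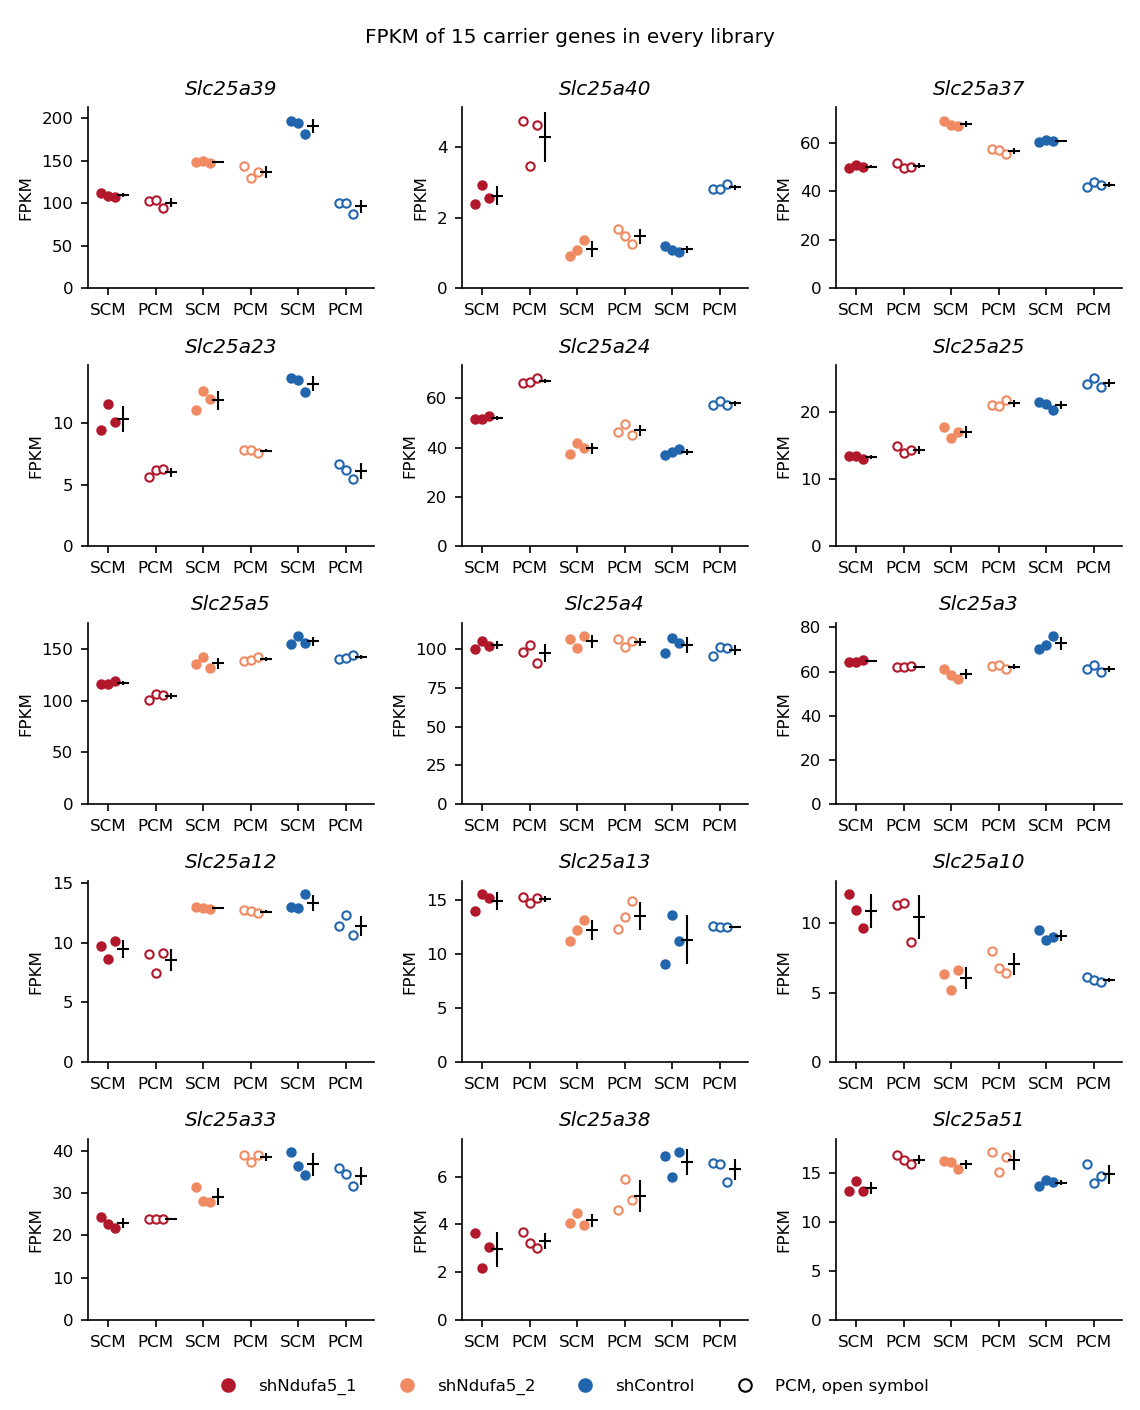
FPKM of 15 carrier genes in each of the 18 libraries, with SCM filled and PCM open and, for each pair, shNdufa5_1, the label shNdufa5_2 and shControl from left to right. The black mark beside each group is its mean with 1 SD (n = 3). Slc25a4 lies between 91.2 and 108 FPKM in every library, while Slc25a5 and Slc25a25 are lowest with shNdufa5_1.

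Adenine nucleotide carriers exchange cytosolic ADP for matrix ATP. Of the main pair, Slc25a4 was called in 0 of 9 comparisons (limma, also 0 at an unadjusted p under 0.05), and Slc25a5 was lower with shNdufa5_1 in both media. Slc25a4 had 100.1, 105 and 102 FPKM in shNdufa5_1 SCM, against 98.02, 103 and 91.2 in shNdufa5_1 PCM. It had 106, 100.5 and 108 FPKM in SCM with the label shNdufa5_2, against 106, 101 and 105 in PCM, and 97.2, 107 and 104 in shControl SCM, against 95.4, 101 and 101 in shControl PCM. All 6 groups overlapped with at least one other. The hairpin difference farthest from 0, that of the label shNdufa5_2 in PCM, had a 95% interval of -0.026 to 0.17.

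Slc25a5 (X chromosome) is the main carrier of dividing cells. It had 116, 116 and 119 FPKM in shNdufa5_1 SCM, against 101, 107 and 105 in shNdufa5_1 PCM. It had 135, 142 and 131 FPKM in SCM with the label shNdufa5_2, against 139, 139 and 142 in PCM, and 154, 162 and 155 in shControl SCM, against 141, 141 and 144 in shControl PCM. Every shNdufa5_1 library lay below every other library. Against shControl, Slc25a5 was lower with shNdufa5_1, with log2 differences of -0.42 ± 0.031 in SCM (limma adjusted p = 1.4e-08, but -0.235 under fragment totals, -0.0820 under quantile normalization and -0.00381, not called, under summed FPKM) and -0.44 ± 0.031 in PCM (adjusted p = 1.62e-08). It was lower in SCM with the label shNdufa5_2 (-0.21 ± 0.031, adjusted p = 0.00015), a direction that turned to 0.0857 when scaled to summed FPKM and to 0.0127 under quantile normalization. In PCM that label gave -0.020 ± 0.031 (95% interval -0.087 to 0.047).

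The small shControl rise of Slc25a5 in SCM (0.15) turned to -0.103 under fragment totals, -0.461 under summed FPKM and -0.333 under quantile normalization. With GC content and length removed, the deficit in shNdufa5_1 SCM was -0.26 and that of the label shNdufa5_2 -0.12. Within a library the ratio of Slc25a5 to Slc25a4 in FPKM is the same under fragment totals and summed FPKM, which multiply every gene of a library alike, but not under quantile normalization. In the deposited values it was 1.14 ± 0.0353 in shNdufa5_1 SCM, against 1.53 ± 0.0490 in shControl SCM, and 1.07 ± 0.0677 in shNdufa5_1 PCM, against 1.43 ± 0.0383 in shControl PCM (SD, n = 3 each). Neither pair overlapped (exact permutation p = 0.1 for each, the smallest possible). The label shNdufa5_2 also lay below shControl without overlap, at 1.30 ± 0.101 in SCM and 1.34 ± 0.0356 in PCM (exact permutation p = 0.1 for each). GENCODE vM21 names 1 pseudogene after Slc25a5, whose reads the counting could split. Pseudogenes under other names were not searched for.

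Slc25a3 carries phosphate, the other substrate of ATP synthesis. It moved little outside shControl SCM. It had 64.4, 64.6 and 65.04 FPKM in shNdufa5_1 SCM, against 62.1, 62.1 and 62.4 in shNdufa5_1 PCM. It had 61.1, 58.6 and 56.7 FPKM in SCM with the label shNdufa5_2, against 62.8, 62.9 and 61.01 in PCM, and 70.2, 72.2 and 75.9 in shControl SCM, against 61.2, 62.8 and 60.03 in shControl PCM. The shControl SCM libraries were the highest of the 18 and overlapped no other group. The shControl response was 0.24 ± 0.033 (limma adjusted p = 1.21e-05), but it was -0.00435 under fragment totals, -0.359 under summed FPKM and -0.0550 under quantile normalization, and 0.49 once GC content and length were removed. The response with shNdufa5_1 minus that in shControl was -0.19 (adjusted p = 0.00765), which turned to 0.0116, 0.359 and 0.0221 under the same 3 scalings. It was -0.32 for the label shNdufa5_2 (adjusted p = 5.67e-05), and 0.319 under summed FPKM. In SCM itself Slc25a3 was lower than in shControl with that label (-0.30, adjusted p = 8.61e-06; -0.0129 and not called under summed FPKM).

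Slc25a23, Slc25a24 and Slc25a25 are ATP-Mg/phosphate carriers, which calcium activates and which set the size of the matrix adenine nucleotide pool. SCM raised Slc25a23 and lowered Slc25a24 with every hairpin. Slc25a23 had 9.43, 11.5 and 10.1 FPKM in shNdufa5_1 SCM, against 5.59, 6.18 and 6.24 in shNdufa5_1 PCM. It had 11.03, 12.6 and 11.99 FPKM in SCM with the label shNdufa5_2, against 7.81, 7.82 and 7.61 in PCM, and 13.6, 13.5 and 12.5 in shControl SCM, against 6.69, 6.21 and 5.46 in shControl PCM. Every SCM library lay above every PCM library, whichever the hairpin. The response was 0.69 ± 0.074 with shNdufa5_1 (limma adjusted p = 3.92e-06), 0.55 ± 0.074 with the label shNdufa5_2 (adjusted p = 9.78e-05) and 1.00 ± 0.074 in shControl (adjusted p = 1.51e-08).

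The response of Slc25a23 with the label shNdufa5_2 minus that in shControl was -0.45 (limma adjusted p = 0.00301), which was not called with GC content and length removed (-0.27, adjusted p = 0.0657) and turned to 0.138 under summed FPKM. With shNdufa5_1 the difference was -0.31 (adjusted p = 0.0423). It turned to 0.197 under summed FPKM and lost its call without any one of 8 of the 12 libraries, shControl PCM 2 and 3, shControl SCM 1 and 2, shNdufa5_1 PCM 2 and 3 and shNdufa5_1 SCM 1 and 3 (-0.32 to -0.24).

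Slc25a24, described after its values were seen, had 51.8, 51.6 and 53 FPKM in shNdufa5_1 SCM, against 66.3, 66.7 and 68.1 in shNdufa5_1 PCM. It had 37.5, 41.96 and 39.7 FPKM in SCM with the label shNdufa5_2, against 46.5, 49.4 and 45.3 in PCM, and 37.2, 38.4 and 39.5 in shControl SCM, against 57.4, 59.03 and 57.4 in shControl PCM. In each case the media did not overlap, and the response was -0.36, -0.24 and -0.58, all called. With GC content and length removed these were -0.18, -0.19 and -0.36, still called. The response of the label shNdufa5_2 was not called under summed FPKM (-0.199). Slc25a24 was higher with shNdufa5_1 than in shControl in both media (0.43 in SCM and 0.21 in PCM, the second not called under summed FPKM). With the label shNdufa5_2 it was lower than in shControl in PCM (-0.30 ± 0.040, adjusted p = 4.63e-05, called in every setting tried and without any 1 library) and not called in SCM (0.048 ± 0.040, adjusted p = 0.392). The ratio of Slc25a23 to Slc25a24 was 0.345 ± 0.0249 in shControl SCM, against 0.106 ± 0.0107 in shControl PCM, and the media did not overlap with any hairpin (exact permutation p = 0.1 for each). This follows from the opposite moves of Slc25a23 and Slc25a24, each without overlap, so the ratio test adds nothing to them.

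Slc25a25 was lower with both hairpins in both media. It had 13.4, 13.4 and 12.9 FPKM in shNdufa5_1 SCM, against 21.4, 21.1 and 20.2 in shControl SCM, and 14.95, 13.8 and 14.3 in shNdufa5_1 PCM, against 24.01, 24.9 and 23.7 in shControl PCM. Libraries labelled shNdufa5_2 had 17.8, 16.03 and 16.99 FPKM in SCM and 21.02, 20.9 and 21.8 in PCM. No hairpin group overlapped the shControl group in the same medium. The difference was -0.62 ± 0.042 in SCM (limma adjusted p = 4.87e-09) and -0.72 ± 0.042 in PCM (adjusted p = 1.91e-09) for shNdufa5_1. In the libraries labelled shNdufa5_2 it was -0.29 ± 0.042 in SCM (adjusted p = 9.59e-05) and -0.18 ± 0.042 in PCM (adjusted p = 0.00332). These directions held under every scaling tried, but under summed FPKM the SCM difference of that label was -0.0116 and not called. SCM lowered Slc25a25 in shControl (-0.20, limma adjusted p = 0.000685, called in every setting tried and without any single library). It also did so with the label shNdufa5_2 (-0.31, adjusted p = 0.000111, but -0.27 and not called under summed FPKM). The response of Slc25a25 with shNdufa5_1 was not called. An opposite-strand gene, Naif1, shares 4.82% of its exon bases, and the strand of counting is not given in the sources used here. Of the other members of this role, Slc25a17, the peroxisomal carrier of adenine nucleotides and coenzyme A, was called in 1 comparison, higher with shNdufa5_1 in SCM (0.53). Over the 7 tested members of the role, SCM in shControl raised 3 and lowered 2, beside 31.7% and 30.2% of all genes, and Slc25a3 and Slc25a5 among the 3 turned under all 3 scalings.

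Carriers of the malate-aspartate shuttle were split by shNdufa5_1. Slc25a12 and Slc25a13 exchange matrix aspartate for glutamate, and Slc25a11 exchanges malate for oxoglutarate. Slc25a12 had 9.70, 8.67 and 10.1 FPKM in shNdufa5_1 SCM, against 12.97, 12.9 and 14.1 in shControl SCM, and 9.05, 7.50 and 9.13 in shNdufa5_1 PCM, against 11.4, 12.3 and 10.6 in shControl PCM. With the label shNdufa5_2 it had 12.98, 12.9 and 12.8 FPKM in SCM and 12.7, 12.7 and 12.5 in PCM, above all 6 shNdufa5_1 libraries. It was lower with shNdufa5_1, with -0.45 ± 0.070 in SCM (limma adjusted p = 4.15e-05; -0.0617 and not called under summed FPKM) and -0.38 ± 0.070 in PCM (adjusted p = 0.000264). The differences for the label shNdufa5_2 were -0.043 ± 0.070 (95% interval -0.19 to 0.10) and 0.13 ± 0.070 (95% interval -0.014 to 0.28), not called. The shControl response of 0.21 (adjusted p = 0.0176) was lost without shControl PCM replicate 3 (0.16) or SCM replicate 3 (0.17) and turned to -0.0253 under fragment totals and -0.358 under summed FPKM.

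Slc25a13 had 13.97, 15.6 and 15.2 FPKM in shNdufa5_1 SCM, against 9.13, 13.7 and 11.3 in shControl SCM, and 15.4, 14.8 and 15.2 in shNdufa5_1 PCM, against 12.6, 12.5 and 12.5 in shControl PCM. In the libraries labelled shNdufa5_2, Slc25a13 had 11.3, 12.3 and 13.1 FPKM in SCM and 12.4, 13.4 and 14.9 in PCM. The shControl SCM libraries were widely spread. Slc25a13 was higher with shNdufa5_1 in SCM (0.38 ± 0.10, limma adjusted p = 0.004; 0.24 without shControl SCM 1 and 0.51 without shControl SCM 2, both called). The PCM difference of 0.25 ± 0.10 (adjusted p = 0.0479) lost its call whichever of the 6 libraries was left out (0.24 to 0.26). The ratio of Slc25a12 to Slc25a13 was 0.639 ± 0.0727 in shNdufa5_1 SCM, against 1.21 ± 0.240 in shControl SCM, and 0.565 ± 0.0505 in shNdufa5_1 PCM, against 0.909 ± 0.0678 in shControl PCM (SD, n = 3 each). Neither pair overlapped (exact permutation p = 0.1), while the label shNdufa5_2 overlapped shControl in both media, at 1.06 ± 0.0887 in SCM and 0.935 ± 0.0967 in PCM. With shNdufa5_1 each gene already lay apart from shControl, in opposite directions, so the ratio test adds nothing to them. Slc25a11 was also lower with shNdufa5_1, at 30.9 ± 1.01 FPKM, against 40.7 ± 2.73 in shControl, in SCM (-0.38, adjusted p = 3.61e-05), a difference that was 0.0274 under summed FPKM and not called with GC content and length removed (-0.12, adjusted p = 0.0785). It overlaps Rnf167 on the opposite strand in 8.92% of its exon bases.

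**Figure D4:**
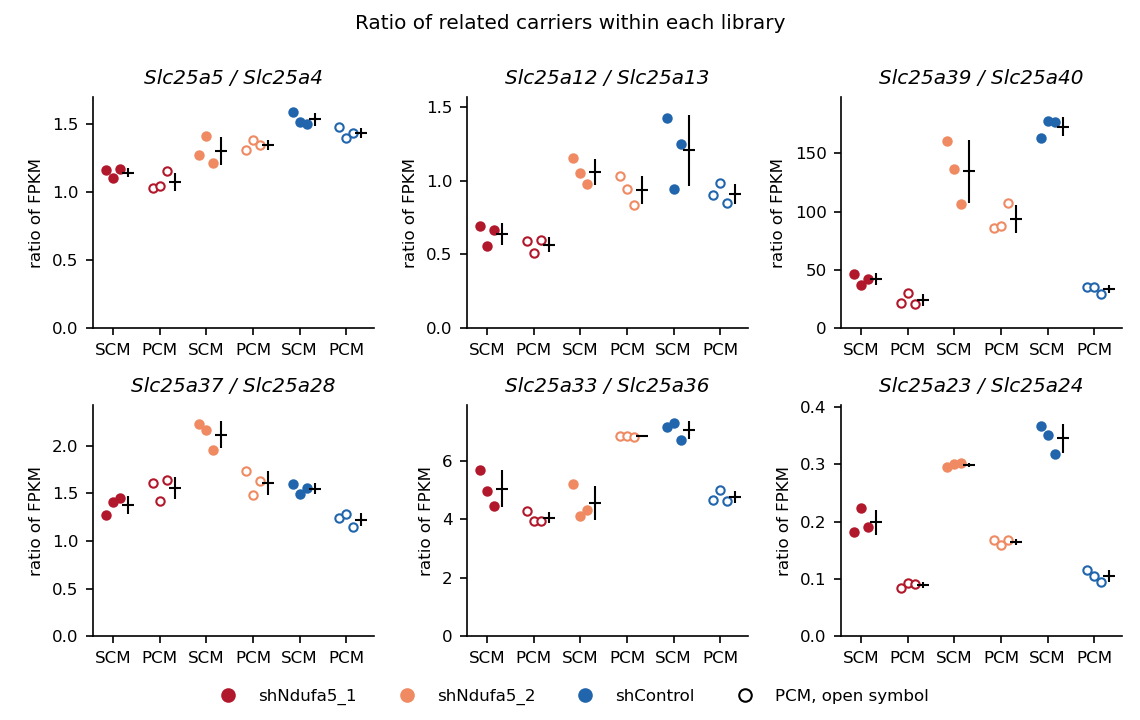
Ratio of the FPKM of related carriers within each of the 18 libraries, with SCM filled and PCM open and shNdufa5_1, the label shNdufa5_2 and shControl from left to right. The black mark is the mean with 1 SD (n = 3). Slc25a5 over Slc25a4 and Slc25a12 over Slc25a13 are lowest with shNdufa5_1 in both media, and Slc25a39 over Slc25a40 reaches its highest mean, 173, in shControl SCM.

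Slc25a10, the dicarboxylate carrier, which exchanges malate or succinate for phosphate, had, after Slc25a39, the most negative difference of response in the libraries labelled shNdufa5_2. It had 12.1, 10.9 and 9.63 FPKM in shNdufa5_1 SCM, against 11.3, 11.4 and 8.61 in shNdufa5_1 PCM. It had 6.34, 5.18 and 6.64 FPKM in SCM with the label shNdufa5_2, against 7.98, 6.78 and 6.44 in PCM, and 9.51, 8.76 and 8.97 in shControl SCM, against 6.10, 5.88 and 5.75 in shControl PCM. The media overlapped with both hairpins and were apart in shControl. The shControl response was 0.54 ± 0.11 (limma adjusted p = 0.000373), which was not called with GC content and length removed (0.22, adjusted p = 0.0662) or under summed FPKM (0.00828). The response differed from it by -0.74 ± 0.15 for the label shNdufa5_2 (adjusted p = 0.00104; -0.44 with GC content and length removed, and -0.165, not called, under summed FPKM) and by -0.49 ± 0.15 for shNdufa5_1 (adjusted p = 0.0261).

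The difference of response of Slc25a10 for shNdufa5_1 was lost under fragment totals, summed FPKM and GC and length removal, and without shControl PCM 3 (-0.47), shControl SCM 1 (-0.46), shNdufa5_1 PCM 1 (-0.43) or 2 (-0.42), or shNdufa5_1 SCM 3 (-0.41). In PCM, Slc25a10 was higher with shNdufa5_1 than in shControl (0.72 ± 0.11, limma adjusted p = 3.77e-05). In SCM it was lower with the label shNdufa5_2 (-0.52 ± 0.11, adjusted p = 0.00163). An antisense gene, Gm11788, shares 6.6% of its exon bases.

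Slc25a1 exports citrate, the source of cytosolic acetyl-CoA. It was not among the members chosen for full values but rose in SCM with every hairpin, to 71.2 FPKM against 47 in PCM with shNdufa5_1, 63.2 against 58.03 with the label shNdufa5_2, and 72.1 against 47.2 in shControl. Its response was 0.59 ± 0.035 with shNdufa5_1, 0.12 ± 0.035 with the label shNdufa5_2 and 0.60 ± 0.035 in shControl, where it was 0.20 with GC content and length removed and 0.000378, not called, under summed FPKM. The rise with the label shNdufa5_2 was not called without PCM replicate 1 (0.10) or SCM replicate 2 (0.10) of that label, under any of the 3 scalings or with GC content and length removed (0.084).

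Slc25a22, a glutamate carrier, was higher with both hairpins in PCM. It had 6.89, 7.74 and 7.68 FPKM with shNdufa5_1 and 7.83, 7.59 and 7.23 with the label shNdufa5_2, against 6.35, 6.38 and 5.54 in shControl. In SCM it had 6.90, 6.36 and 6.06 FPKM with shNdufa5_1 and 7.70, 7.43 and 7.12 with the label shNdufa5_2, against 6.40, 6.62 and 7.52 in shControl. The PCM groups did not overlap shControl, and both SCM groups did. The PCM differences were 0.25 ± 0.068 (limma adjusted p = 0.00558; 0.140 and not called under summed FPKM) for shNdufa5_1 and 0.27 ± 0.068 (adjusted p = 0.00556) for the label shNdufa5_2, which turned to -0.0401 under summed FPKM. Its response to SCM with shNdufa5_1 differed from shControl's by -0.33 ± 0.10 (adjusted p = 0.0196), or 0.147 under summed FPKM and -0.155 under fragment totals, neither called, and lost its call without shControl PCM 3 (-0.27) or shNdufa5_1 SCM 3 (-0.29). Over the 6 tested members of this role, SCM in shControl raised 4 and lowered 0, beside 31.7% and 30.2% of all genes. Of the 4, Slc25a11 and Slc25a12 turned under fragment totals (-0.0455 and -0.0253) and summed FPKM (-0.396 and -0.358), and Slc25a11 also with GC content and length removed (-0.0972).

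Slc25a51 brings NAD into the matrix, where complex I reoxidises NADH. Its level moved little. It had 13.1, 14.2 and 13.2 FPKM in shNdufa5_1 SCM, against 16.8, 16.3 and 15.9 in shNdufa5_1 PCM. It had 16.2, 16.04 and 15.3 FPKM in SCM with the label shNdufa5_2, against 17.1, 15.1 and 16.6 in PCM, and 13.7, 14.2 and 14.1 in shControl SCM, against 15.8, 13.9 and 14.7 in shControl PCM. The one contrast that held under every setting tried was its fall in SCM with shNdufa5_1 (-0.26 ± 0.052, limma adjusted p = 0.00105), where the media did not overlap. In shControl the response was -0.077 ± 0.052 (adjusted p = 0.216), and the responses did not pass the test of a difference (-0.18 ± 0.074, 95% interval -0.34 to -0.023, adjusted p = 0.0851).

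Slc25a51 was higher in SCM with the label shNdufa5_2 (0.17 ± 0.052, limma adjusted p = 0.0209), a call lost without shControl SCM 1 (0.15), or SCM 1 (0.15) or 2 (0.16) of that label. Its PCM difference for shNdufa5_1 of 0.13 (adjusted p = 0.0475) held without shControl PCM 1 and was lost without any other of the 6 libraries (0.089 to 0.15).

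Slc25a33 and Slc25a36 carry pyrimidine nucleotides into the matrix for mitochondrial RNA and DNA. Slc25a33 had 24.3, 22.8 and 21.8 FPKM in shNdufa5_1 SCM, against 39.7, 36.5 and 34.3 in shControl SCM, and 23.9, 23.96 and 23.8 in shNdufa5_1 PCM, against 35.9, 34.4 and 31.6 in shControl PCM. It had 31.4, 28.1 and 27.9 FPKM in SCM and 39.1, 37.3 and 38.9 in PCM with the label shNdufa5_2. SCM lowered Slc25a33 with the label shNdufa5_2 (-0.39, limma adjusted p = 0.000269, called in every setting tried and without any single library). Its response was not called with shNdufa5_1 or in shControl. Both hairpins lay below shControl in SCM without overlap, and in PCM only shNdufa5_1 did. The differences in SCM were -0.66 ± 0.059 for shNdufa5_1 (limma adjusted p = 1.32e-07) and -0.33 ± 0.059 for the label shNdufa5_2 (adjusted p = 0.000675), or -0.38 and -0.18 with GC content and length removed. Under summed FPKM the second was -0.0403 and not called. In PCM shNdufa5_1 gave -0.49 ± 0.059 (adjusted p = 4.85e-06). The PCM difference of the label shNdufa5_2, 0.17, turned to -0.174 under summed FPKM and was lost without shControl PCM 2 (0.18) or 3 (0.13) or PCM 1 (0.16) or 3 (0.17) of that label. The antisense gene Gm13068 shares 14.9% of the exon bases of Slc25a33, the most of any tested member.

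Slc25a36 had 4.26, 4.58 and 4.92 FPKM in shNdufa5_1 SCM, against 5.56, 6.08 and 6.01 in shNdufa5_1 PCM. It had 6.04, 6.84 and 6.44 FPKM in SCM with the label shNdufa5_2, against 5.71, 5.46 and 5.71 in PCM, and 5.54, 5.003 and 5.09 in shControl SCM, against 7.69, 6.86 and 6.83 in shControl PCM. In the libraries labelled shNdufa5_2 the difference between the media was positive but not called (0.17 ± 0.062, limma adjusted p = 0.0678). SCM lowered Slc25a36 in shControl (-0.39 ± 0.062, adjusted p = 6.32e-05) and with shNdufa5_1 (-0.30 ± 0.062, adjusted p = 0.00116). The difference of response for the label shNdufa5_2 was 0.55 ± 0.088 (adjusted p = 0.000132). These 3 were not called with GC content and length removed (-0.049, -0.045 and 0.17). In PCM it was lower than in shControl with shNdufa5_1 (-0.24 ± 0.062, adjusted p = 0.00439) and with the label shNdufa5_2 (-0.29 ± 0.062, adjusted p = 0.00176), the second again not called in that setting (-0.086). The hairpins lay on opposite sides of shControl in SCM. Slc25a36 averaged 4.59 FPKM there with shNdufa5_1 and 6.44 with the label shNdufa5_2, against 5.21 in shControl, and neither overlapped shControl. The SCM decrease with shNdufa5_1 turned to 0.194 under summed FPKM and 0.00290 under fragment totals. Among the cofactor carriers, Slc25a26, the S-adenosylmethionine carrier, was called by limma in 0 of 9 comparisons, with 1 at an unadjusted p under 0.05.

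Slc25a38 imports glycine for the first step of heme synthesis, and it showed the deepest decrease of any member against shControl. It had 3.63, 2.18 and 3.06 FPKM in shNdufa5_1 SCM, against 6.85, 5.98 and 7.02 in shControl SCM, and 3.67, 3.23 and 3.02 in shNdufa5_1 PCM, against 6.57, 6.53 and 5.79 in shControl PCM. Slc25a38 had 4.08, 4.49 and 3.97 FPKM in SCM and 4.61, 5.92 and 5.005 in PCM with the label shNdufa5_2. All 6 shNdufa5_1 libraries lay below all 6 shControl libraries, and the SCM libraries labelled shNdufa5_2 lay between. The difference was -0.96 ± 0.12 in SCM (limma adjusted p = 3.42e-06) and -0.76 ± 0.12 in PCM (adjusted p = 5.11e-05) for shNdufa5_1. It was -0.56 ± 0.12 in SCM (adjusted p = 0.00196; -0.303 and not called under summed FPKM) and -0.24 ± 0.12 in PCM, not called (adjusted p = 0.117), for the label shNdufa5_2. SCM did not change it detectably in shControl (0.060 ± 0.12, 95% interval -0.19 to 0.31).

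Slc25a29 carries basic amino acids. It had 3.10, 1.99 and 2.42 FPKM in shNdufa5_1 SCM, against 1.49, 2.43 and 1.87 in shNdufa5_1 PCM. It had 3.90, 1.44 and 3.80 FPKM in SCM with the label shNdufa5_2, against 1.89, 2.30 and 2.50 in PCM, and 4.25, 3.85 and 4.38 in shControl SCM, against 2.12, 2.17 and 2.14 in shControl PCM. Only the shControl media were apart, with 0.71 ± 0.21 (limma adjusted p = 0.00751), which was 0.33 and not called with GC content and length removed (adjusted p = 0.184), and 0.258 and not called under summed FPKM. The responses with the hairpins were not called (0.26 and 0.26), but the differences from shControl's were not called either (-0.46 ± 0.29 and -0.45 ± 0.29).

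Others of this role changed less. Slc25a44, which brings branched-chain amino acids into mitochondria, fell in SCM by about the same amount with shNdufa5_1 (-0.24), with the label shNdufa5_2 (-0.19, not called under summed FPKM) and in shControl (-0.23), and was lower with shNdufa5_1 than in shControl in PCM (-0.31). Its difference between shNdufa5_1 and shControl in SCM was -0.32, or 0.0704 under summed FPKM. Slc25a15, an ornithine carrier of the urea cycle, was lower than in shControl in SCM with the label shNdufa5_2 (-0.45, not called under summed FPKM). Slc25a48, a choline carrier, was higher with shNdufa5_1 in SCM (0.63). Slc25a20, which exchanges acylcarnitine for carnitine in fatty acid oxidation, was called by limma in 0 of 9 comparisons, with 3 at an unadjusted p under 0.05, all lower with a hairpin (-0.22 to -0.20).

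Of the uncoupling-like members, which resemble the uncoupling proteins, Slc25a30 rose in SCM with shNdufa5_1 (0.31 ± 0.058, limma adjusted p = 0.000562), with the label shNdufa5_2 (0.26 ± 0.058, adjusted p = 0.00435) and in shControl (0.50 ± 0.058, adjusted p = 2.1e-06; -0.0793 under summed FPKM). It averaged 24.6 ± 0.962 FPKM in SCM and 19.6 ± 0.127 in PCM with shNdufa5_1, 27.04 ± 1.23 and 22.4 ± 0.684 with the label shNdufa5_2, and 25.4 ± 1.53 and 17.6 ± 1.59 in shControl (SD, n = 3 each). Slc25a14 fell in SCM in shControl (-0.47). Slc25a27 was called by limma in 0 of 9 comparisons, with 0 at an unadjusted p under 0.05.

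Slc25a46 sits in the outer membrane and bears on mitochondrial shape and lipid exchange. It had 13.4, 13.8 and 12.6 FPKM in shNdufa5_1 SCM, against 17.1, 14.7 and 17.3 in shNdufa5_1 PCM. It had 9.30, 8.60 and 9.60 FPKM in SCM with the label shNdufa5_2, against 9.56, 9.34 and 8.42 in PCM, and 7.66, 7.51 and 9.97 in shControl SCM, against 13.1, 13.04 and 12.5 in shControl PCM. The libraries labelled shNdufa5_2 were low in both media, as were those of shControl in SCM, and the shNdufa5_1 PCM libraries were the highest. SCM lowered it in shControl (-0.57 ± 0.087, limma adjusted p = 3.46e-05; -0.25 with GC content and length removed). The response differed for the label shNdufa5_2 by 0.58 ± 0.12 (adjusted p = 0.00131), which was not called with GC content and length removed (0.28, adjusted p = 0.0832). Slc25a46 was higher with shNdufa5_1 than in shControl in SCM (0.62 ± 0.087, adjusted p = 1.64e-05) and PCM (0.32 ± 0.087, adjusted p = 0.00594, not called under summed FPKM or with GC content and length removed), and lower with the label shNdufa5_2 in PCM (-0.46 ± 0.087, adjusted p = 0.00074). B930094E09Rik shares 7.06% of its exon bases on the opposite strand. Slc25a16, of less defined substrate, fell in SCM with shNdufa5_1 (-0.33, not called with GC content and length removed) and in shControl (-0.52).

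The 13 members not tested averaged below 1 FPKM. Slc25a21 (oxoadipate), Slc25a31 (the adenine nucleotide carrier of testis) and Slc25a41 were listed at 0 in all 18 libraries, and Slc25a34 and Slc25a54 were above 0 in 2 and 1. Slc25a47 (0.83 FPKM), Slc25a45 (0.65), Slc25a42 (0.63), Slc25a35 (0.58), Slc25a43 (0.57), Slc25a53 (0.50), Slc25a2 (0.38) and Slc25a18 (0.20) made up the rest. Slc25a42 carries coenzyme A and Slc25a18 is the second glutamate carrier. Some silent or low members lie beside more highly expressed ones in the genome. Slc25a41 lies 2.06 kb from Slc25a23 on chromosome 17, Slc25a54 lies 6.46 kb from Slc25a24 on chromosome 3, and Slc25a47 starts 0.163 kb from Slc25a29 on chromosome 12.

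The response of the members varied with base composition. Across the 34 members, the response to SCM in shControl rose with the GC content of the transcript (Spearman rho 0.664 across genes, which are not independent replicates). Over all 11074 genes with a value it was 0.527. The same rho was 0.502 for the members with shNdufa5_1, against -0.0026 in the libraries labelled shNdufa5_2. For the difference of response it was -0.595 with shNdufa5_1 and -0.776 for the label shNdufa5_2, against -0.225 and -0.539 over all genes. Removing a smooth trend with GC content and length left 14 of the 21 shControl calls, 8 of 12 with shNdufa5_1 and 8 of 9 with the label shNdufa5_2. It left 5 of 7 differences of response for shNdufa5_1 and 7 of 16 for the label shNdufa5_2. Whether composition has a part in these differences was not tested beyond this removal.

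**Figure D5:**
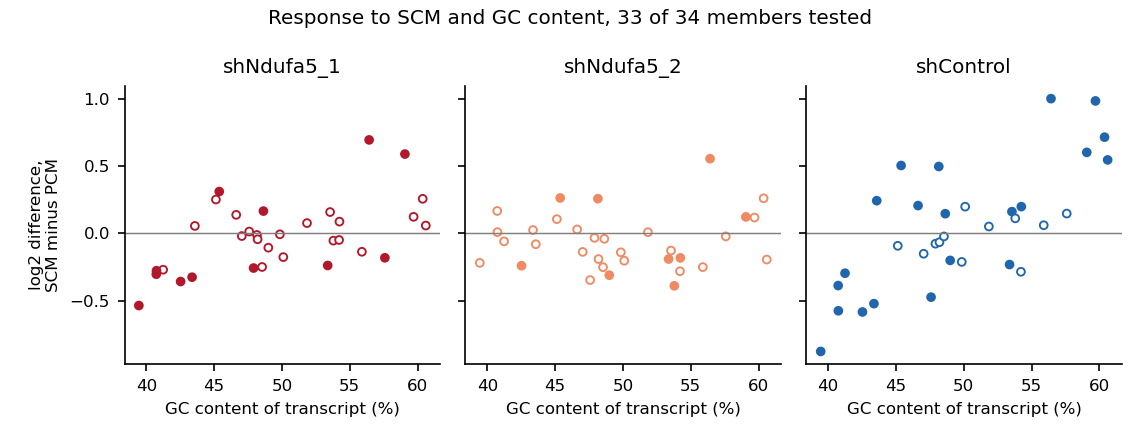
Response to SCM (log2 difference, SCM minus PCM) against the GC content of the transcript for 33 of the 34 members tested, with shNdufa5_1 on the left, the label shNdufa5_2 in the middle and shControl on the right. Filled symbols passed the test. In shControl the low-GC end holds Slc25a40 (39.4% GC, -0.88) and the high-GC end Slc25a39 (59.7% GC, 0.98).

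Counting only calls that held in every setting tried and without any single library left a short list. For SCM against PCM these were 9 of 21 members in shControl, 6 of 12 with shNdufa5_1 and 4 of 9 with the label shNdufa5_2. For shNdufa5_1 against shControl they were 10 of 22 in SCM and 9 of 19 in PCM, and for the label shNdufa5_2 they were 2 of 15 in SCM and 4 of 14 in PCM. For the difference of response they were 2 of 7 and 2 of 16.

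Genes that work with the carriers were taken from 7 lists of 40 genes, of which 33 were tested. SCM against PCM called 13 higher and 1 lower with shNdufa5_1, beside 22.5% and 19.8% of all genes, 6 higher and 2 lower with the label shNdufa5_2, beside 11.7% and 11.1%, and 15 higher and 5 lower in shControl, beside 31.7% and 30.2%. Under fragment totals the shControl split was 7 higher and 13 lower, beside 17.5% and 48.8% of all genes. Under summed FPKM it was 2 and 24, beside 4.4% and 70.4%, so the lean of these lists is relative to the median gene. In SCM, shNdufa5_1 against shControl called 7 higher and 14 lower, beside 28.7% and 31.1% of all genes. Fragment totals called 16 and 9 (beside 43.7% and 20%), and summed FPKM 21 and 3 (beside 57.3% and 9%). The label shNdufa5_2 called 2 higher and 7 lower in SCM, beside 13.9% and 20%. Fragment totals called 5 and 5 (beside 24.4% and 11.4%), and summed FPKM 11 and 0 (beside 42.9% and 1.66%). In PCM, shNdufa5_1 called 8 higher and 10 lower, beside 25.6% and 27.1%. Fragment totals called 8 and 10 (beside 24.9% and 28.4%), and summed FPKM 3 and 12 (beside 12.7% and 33.1%). The label shNdufa5_2 called 14 higher and 3 lower in PCM, beside 19.3% and 16.3%. Fragment totals called 9 and 5 (beside 12% and 26.3%), and summed FPKM 1 and 13 (beside 1.25% and 57%).

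The list of shuttle enzymes held Got1, Got2, Mdh1, Mdh2, Gpd1, Gpd2 and Gpd1l. Of these, 4 of 7 were lower and 1 higher in shNdufa5_1 SCM than in shControl SCM, beside 31.1% lower and 28.7% higher of all genes. Mdh2, the matrix malate dehydrogenase, averaged 236.5 FPKM in shNdufa5_1 SCM, against 413 in shControl SCM (-0.80 ± 0.029, limma adjusted p = 5.33e-12). Got2, the matrix aspartate aminotransferase, averaged 58.9 FPKM, against 95.5 (-0.69 ± 0.045, adjusted p = 3.87e-09). Both directions held under every scaling tried and with GC content and length removed. The TIM22 complex inserts carriers into the inner membrane. Its subunit Timm29 averaged 11.1 FPKM in shNdufa5_1 SCM, against 17.2 in shControl SCM (-0.59 ± 0.044, adjusted p = 1.62e-08), and 11.3 in shNdufa5_1 PCM, against 19.8 in shControl PCM (-0.76 ± 0.044, adjusted p = 1.84e-09). Its channel subunit Timm22 was lower too, with -0.48 ± 0.075 in SCM (adjusted p = 4.57e-05, not called under summed FPKM) and -0.58 ± 0.075 in PCM (adjusted p = 9.28e-06). Tomm70a, the outer membrane receptor for carrier precursors, fell in shControl SCM to 12.4 FPKM, against 18.6 in PCM (-0.55 ± 0.064, adjusted p = 2.03e-06). Mtch1, a carrier relative of the outer membrane, rose in shControl SCM to 117 FPKM, against 57.0 in PCM (1.02 ± 0.048, adjusted p = 8.23e-11), and its response was smaller with shNdufa5_1 (-0.68 ± 0.067, adjusted p = 2.92e-06) and with the label shNdufa5_2 (-0.80 ± 0.067, adjusted p = 3.43e-07), neither called under summed FPKM.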

How the data were processed

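PolyA RNA of 18 libraries was measured, 3 in each of 6 groups, and groups were taken from the sample labels. The authors deposited FPKM values per gene. Per the submitters' processing notes, which give no role for each tool, STAR 2.6.1 and DESeq2 were used with GRCm38 (mm10). The FPKM denominators imply scaling to a common median gene. No source used here gives the counter, its strand setting or the gene lengths.

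Genes with a mean of at least 1 FPKM (11084 of 54532) were fitted as log2(FPKM + 1) with limma 3.58.1 in R 4.3.3, with 1 coefficient per group over all 18 libraries, an intensity trend in the variances, and Benjamini-Hochberg adjustment over all genes at 0.05. The log2 scale with a pseudocount of 1 understates changes of low genes. There were 9 contrasts, 7 pairs of groups and 2 differences of response. Fragment totals (13.8 to 38.9 M) were recovered from the steps of the FPKM values, and 99.5% to 99.8% of values of up to 20 fragments were whole within 0.1. The fit was tested on simulated data. Ratios within libraries were compared by exact two-sided permutation, and the pairs of genes were picked after their values were seen.

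Members given with every library's value were first the ATP/ADP, phosphate, aspartate-glutamate and NAD carriers. Added were the 4 called members with the biggest change for SCM against PCM in shControl. Up to 4 in each medium whose calls with the 2 hairpins had the same direction were also added. In both of these picks the groups of libraries compared did not overlap. Up to 4 called members for each difference of response were taken without that condition. Others are named with less detail, and 1 tested member, which stays in the counts, is not reported here. The members and lists were chosen with earlier results of these data known. Alternatives were another pseudocount, no filter, scaling to summed FPKM, quantile normalization, removal of a spline trend with GC content and length, a replicate block, only the groups compared, no variance trend, leaving out each library, and, added after the data were seen, scaling to fragment totals. Promoter windows are from RefSeq (GRCm38.p6), exon overlaps from GENCODE vM21. Figures were drawn with matplotlib 3.10.9.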

Additional observations from a re-analysis of the deposited data

Results flagged for a closer look

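The response to SCM of 7 members differed between shNdufa5_1 and shControl by the test of that difference, in log2 units as the response with shNdufa5_1 minus that in shControl. The values were -0.487 for Slc25a10, -0.328 for Slc25a22, -0.306 for Slc25a23, 0.226 for Slc25a24, -0.187 for Slc25a3, -0.508 for Slc25a37 and -0.860 for Slc25a39. Of these, 2 (Slc25a24 and Slc25a39) were called in every setting tried and without any 1 library. Under summed FPKM 4 turned, to 0.147 for Slc25a22, 0.197 for Slc25a23, 0.359 for Slc25a3 and 0.0354 for Slc25a37, and Slc25a3 also turned under fragment totals (0.0116) and quantile normalization (0.0221).

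The same test singled out 16 members for the libraries labelled shNdufa5_2, where Ndufa5 itself was at 93.4% of shControl in PCM. The values were -0.865 for Slc25a39, -0.739 for Slc25a10, -0.501 for Slc25a33, -0.479 for Slc25a1, -0.445 for Slc25a23, -0.380 for Slc25a11, -0.323 for Slc25a3, -0.289 for Slc25a28, -0.241 for Slc25a30, -0.238 for Slc25a37 and -0.187 for Slc25a5. In the other direction they were 0.343 for Slc25a24, 0.546 for Slc25a16, 0.553 for Slc25a36, 0.584 for Slc25a46 and 0.657 for Slc25a40. Of the 16, 7 were still called with the GC and length trend removed, and 2 (Slc25a16 and Slc25a24) in every setting tried and without any 1 library. In 9 the direction turned under summed FPKM, to 0.134 for Slc25a33, 0.162 for Slc25a1, 0.138 for Slc25a23, 0.255 for Slc25a11, 0.319 for Slc25a3, 0.346 for Slc25a28, 0.381 for Slc25a30, 0.401 for Slc25a37 and 0.461 for Slc25a5. Quantile normalization also turned Slc25a37 (0.0158) and Slc25a5 (0.265), and fragment totals turned Slc25a5 (0.00372). Under fragment totals Slc25a11 (-0.193), Slc25a28 (-0.102), Slc25a30 (-0.0584) and Slc25a37 (-0.0507) were not called. Both differences use the same shControl libraries, so they are not independent.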

How the results depend on the processing

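Most calls did not depend on the pseudocount, the fit or single libraries, and many depended on the scaling. Of the 135 member calls in the 9 comparisons, a pseudocount of 0.1 kept 134, no trend in the variances 132, fitting only the groups compared 126, the replicate block 128 and no filter 118. Quantile normalization kept 109 and turned 9, fragment totals (a setting chosen after the data were seen) kept 109 and turned 9, removal of the GC and length trend kept 94 and turned 3, and summed FPKM kept 67 and turned 36. No pairing by replicate number was seen, with deviations of same-numbered libraries correlating at -0.085 to 0.0606, but 3 libraries per group cannot settle this. Replicate 2 was the deepest library in both shControl groups, at 33.8 M fragments in PCM and 38.9 M in SCM. The other libraries had 13.8 M to 20.8 M. With the block 21 members were called for SCM minus PCM in shControl, 12 with shNdufa5_1 and 8 with the label shNdufa5_2. Against shControl it called 23 in SCM and 18 in PCM with shNdufa5_1, and 16 in SCM and 13 in PCM with the label shNdufa5_2. It called 7 and 16 differences of response. Counts that moved by over 1.5 times were 4 members for SCM minus PCM with the label shNdufa5_2 under summed FPKM, 23 and 14 differences of response with shNdufa5_1 under summed FPKM and fragment totals, and 10 for the label shNdufa5_2 with the GC and length trend removed. Leaving out 1 library gave 19 to 21 calls for SCM minus PCM in shControl, 11 to 13 with shNdufa5_1 and 7 to 10 with the label shNdufa5_2. It gave 20 to 22 in SCM and 15 to 18 in PCM for shNdufa5_1 minus shControl, 13 to 16 in SCM and 12 to 14 in PCM for the label shNdufa5_2, and 4 to 10 and 15 to 16 for the differences of response (4 without shControl PCM 3 or shNdufa5_1 SCM 3). Ndufa5 with shNdufa5_1 stayed at -1.75 to -1.59 in SCM and -1.52 to -1.27 in PCM. With the label shNdufa5_2 it was -0.557 to -0.334 in SCM, not called without shControl SCM 2 (-0.341) or SCM 1 of that label (-0.334), and -0.216 to 0.0401 in PCM. Under summed FPKM it was -0.150 in SCM (limma adjusted p = 0.336) and -0.420 in PCM, there called (adjusted p = 0.00861), and with the GC and length trend removed -0.308 in SCM, not called with or without the block (adjusted p = 0.0563 and 0.0615). Directions turned as follows, as log2 differences. Under summed FPKM these were, for SCM minus PCM in shControl, Slc25a11 -0.396, Slc25a12 -0.358, Slc25a28 -0.433, Slc25a3 -0.359, Slc25a30 -0.0793, Slc25a37 -0.103 and Slc25a5 -0.461. For the label shNdufa5_2 minus shControl in PCM, they were Slc25a1 -0.0595, Slc25a11 -0.183, Slc25a22 -0.0401, Slc25a23 -0.0113, Slc25a30 -0.00941 and Slc25a33 -0.174. For shNdufa5_1 minus shControl in SCM, they were Slc25a11 0.0274, Slc25a23 0.0618, Slc25a3 0.249, Slc25a36 0.194, Slc25a37 0.141 and Slc25a44 0.0704. For the label shNdufa5_2 minus shControl in SCM, they were Slc25a1 0.103, Slc25a11 0.0727, Slc25a28 0.00642 and Slc25a5 0.0857. For the difference of response with shNdufa5_1, they were Slc25a22 0.147, Slc25a23 0.197, Slc25a3 0.359 and Slc25a37 0.0354. For that of the label shNdufa5_2, they were Slc25a1 0.162, Slc25a11 0.255, Slc25a23 0.138, Slc25a28 0.346, Slc25a3 0.319, Slc25a30 0.381, Slc25a33 0.134, Slc25a37 0.401 and Slc25a5 0.461. Under quantile normalization these were, for SCM minus PCM in shControl, Slc25a28 -0.00136, Slc25a3 -0.0550 and Slc25a5 -0.333. For shNdufa5_1 minus shControl in SCM, they were Slc25a3 0.0878 and Slc25a37 0.00375. For the label shNdufa5_2 minus shControl in SCM, it was Slc25a5 0.0127. For the difference of response with shNdufa5_1, it was Slc25a3 0.0221. For that of the label shNdufa5_2, they were Slc25a37 0.0158 and Slc25a5 0.265. Under fragment totals these were, for SCM minus PCM in shControl, Slc25a11 -0.0455, Slc25a12 -0.0253, Slc25a28 -0.0825, Slc25a3 -0.00435 and Slc25a5 -0.103. For shNdufa5_1 minus shControl in SCM, they were Slc25a3 0.0197 and Slc25a36 0.00290. For the difference of response with shNdufa5_1, it was Slc25a3 0.0116. For that of the label shNdufa5_2, it was Slc25a5 0.00372. With the GC and length trend removed, with and without the block, these were, for SCM minus PCM in shControl, Slc25a11 -0.0972 and Slc25a32 0.0180. For the label shNdufa5_2 minus shControl in SCM, it was Slc25a1 0.000759. The causes were not tested. Low members are limited by depth, at 13.8 M fragments in the shallowest library.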

Other observations

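The carnitine system feeds acyl groups to the carnitine carrier Slc25a20. Crat, carnitine acetyltransferase, averaged 8.38 FPKM in SCM against 5.90 in PCM with shNdufa5_1 (0.44 ± 0.082, limma adjusted p = 0.000502) and 8.25 against 5.94 in shControl (0.41 ± 0.082, adjusted p = 0.000407), the second -0.12 under summed FPKM. Cpt2, the inner membrane palmitoyltransferase, averaged 11.5 FPKM in SCM against 8.25 in PCM with shNdufa5_1 (0.43 ± 0.085, adjusted p = 0.000821), and 8.94 against 8.22 in shControl (0.11 ± 0.085, adjusted p = 0.295). The response of Cpt2 with shNdufa5_1 minus that in shControl did not pass the test (0.33 ± 0.12, adjusted p = 0.0568). Ucp2, an uncoupling protein of the carrier fold outside the Slc25 names, averaged 2.42 FPKM in SCM against 1.06 in PCM in shControl (0.73 ± 0.12, adjusted p = 5.7e-05).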
